A study of Rattus norvegicus with 8 samples.

Results

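The transcripts of ribosomal proteins were examined in the hippocampus of rats kindled with pentylenetetrazole (PTZ), a convulsant that blocks GABA-A receptors. Members were the 131 genes, of 22601 in each file, whose KEGG annotation in the files holds the ribosome pathway (rno03010). They comprised 47 genes for proteins of the large and 32 for proteins of the small cytosolic subunit, 44 for proteins of the mitochondrial ribosome, 6 paralogs of cytosolic proteins and 2 further copies. RNA of 8 Wistar rats was sequenced, with 1 library per rat. All rats were wild type and weighed 180 to 220 g, and no age was given. The Con. group (n = 3) received vehicle, the PTZ group (n = 3) received PTZ and vehicle, and the Q808 group (n = 2) received PTZ and the candidate antiepileptic compound Q808. A last PTZ dose preceded tissue collection in the PTZ and the Q808 rats alike. Levels are in FPKM, the number of sequenced fragments per kilobase of a transcript relative to all mapped fragments, and a difference is given on the log2(FPKM + 0.1) scale. The files give no read counts, so the precision of a value is known only from the spread between rats.

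The cytosolic ribosome is built from a large and a small subunit whose proteins are needed in equal numbers, and their genes are transcribed in close coordination. Their messenger RNAs belong to the TOP class, which begins with a tract of pyrimidines (C or T) through which the growth kinase mTOR controls translation. The mitochondrial ribosome is a separate machine, whose proteins, named Mrpl and Mrps, are also encoded in the nucleus, and which translates only the respiratory chain subunits encoded by mitochondrial DNA.

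The pyrimidine tract can be seen in the RefSeq promoter windows (GRCr8), which hold 250 bases before the annotated start and 50 bases from it, and which matched 102 of the 131 members. Shown are 20 bases before and 10 bases from the start of abundant members of both ribosomes and of *Rpl35a*. This was the only member called in the main fits, which used no replicate block and the settings described under processing. Capitals mark the run of C and T that covers the annotated start.
Rpl31: ccatcccacaatccctcgcgCCTTTCCTTT
Rps23: ccttgtgggtccttcctgCCTCTCTTCTCT
Rps15: gcagccgctgacaccgCTTCCTTTTCCCag
Rpl35a: gcgcggcgggtcttgCCTTCCTCTTTCCgc
Rpl41: gaaggggcggctcggaagtgacgacaccaa
Mrpl20: ggaccgtctggcacaacggaactgaactca
Mrps18a: acaaggtcaggtgtgttcccaagatggcgg
In the order shown, they lie at chr9:49143091-49143120 (plus strand), chr2:23814497-23814526 (plus), chr7:10068106-10068135 (minus), chr11:81235012-81235041 (minus), chr7:1563488-1563517 (minus), chr5:171691178-171691207 (plus) and chr9:22367371-22367400 (minus). The windows of *Rpl41*, *Mrpl20* and *Mrps18a* held no C or T run over the annotated start.

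Ribosomal protein genes have many near-identical copies, between which reads can be split, and the members were therefore divided by the rows of the files. In 62 cytosolic genes (39 large, 23 small) other rows with the same product name held under 5% of the summed FPKM, and these 62 genes are called the cytosolic set below. In 11 more, copies held at least 5%. Another 6 cytosolic genes were listed with a mean below 20 FPKM over the 8 libraries. The mitochondrial set held 41 genes, and 3 mitochondrial genes with copies were kept apart. Of the 131 members, 128 reached the mean of 0.1 FPKM needed for a test, among 15593 genes in all.

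A run of at least 5 C or T over the annotated start was found in 31 of the 48 matched promoters of the cytosolic set (64.6%) and in 4 of 33 of the mitochondrial set (12.1%). Over the promoters of all tested genes the share was 11.0%, and 0 of 6 paralogs held such a run. The letters CCGGAAG, the core bound by ETS factors, were present on either strand in 31.2% of the cytosolic, 30.3% of the mitochondrial and 15.7% of all tested promoters. The letters AAGATGG, a core bound by YY1, were present in 14.6%, 15.2% and 7.80% of them. The letters TATAAA of the TATA box were present in 12.5%, 9.09% and 7.43%. The first 2 motifs can overlap by the letters AAG, and all of these matches describe letters only.

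The libraries were checked against their tissue label. The summed FPKM of 6 striatum markers reached 746 (Con.-3), 331 (PTZ-3) and 339 (Q808-1), where the other 5 libraries had 10.2 to 21.1, and none of the 6 was listed at 0 throughout. In the same 3 libraries the sum of 6 dentate granule cell markers was 33.5 to 120.1, against 145.6 to 191.2 elsewhere, so that 1 library of each group stood apart. Of the 6, *Calb1* did not fall in Con.-3 (87.7) and PTZ-3 (111.9), where the other 5 libraries had 66.7 to 87.0, and it was 26.0 in Q808-1. *C1ql2* was at 4.46 (Con.-3), 5.09 (PTZ-3) and 3.23 (Q808-1), against 50.6 to 96.7. Both were singled out after their values were seen. In bulk tissue, fewer cells of a type and less RNA per cell cannot be told apart.

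Cytosolic ribosomal protein transcripts were high in all libraries and moved as a block. The 62 genes had mean levels between 84.7 and 814 FPKM (median 331), and together they made up 4.48% to 5.17% of the summed FPKM in 6 of the 8 libraries. In PTZ-3 and Q808-1 the share was 6.82% and 7.09%. PTZ-3 and Q808-1 were the 2 highest of the 8 libraries for 60 of the 62 genes (96.8%), while this held for 15.5% of all tested genes and for 4 of the 41 mitochondrial genes. The median deviation of all tested genes from their 8-library mean was 0.12 in PTZ-3 and 0.05 in Q808-1.

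The most abundant members showed this pattern one by one. *Rps29*, a small subunit protein, was measured at 765, 651 and 720 FPKM in the Con. libraries, at 733, 646 and 1082 in the PTZ libraries, and at 1207 and 711 in the Q808 libraries. *Rpl41*, which encodes the shortest protein of the large subunit, was at 613, 521 and 522 FPKM in Con., at 641, 612 and 839 in PTZ, and at 836 and 593 in Q808. *Rpl31*, another large subunit protein, was at 523, 470 and 498 in Con., at 464, 440 and 781 in PTZ, and at 758 and 489 in Q808. In each of these genes a single PTZ library and a single Q808 library lay above all others, and the groups overlapped. The mean of *Rps29* was 712 ± 57.0 FPKM (SD, n = 3) in Con., 821 ± 231 (SD, n = 3) in PTZ and 959 ± 350 (SD, n = 2) in Q808, so that the spread within the treated groups exceeded the difference between group means. *Rps23* ranged from 468 (PTZ-2) to 900 FPKM (Q808-1), *Rps15* from 385 (PTZ-2) to 650 (PTZ-3), and *Rpl37l1* from 477 (PTZ-2) to 826 (PTZ-3).

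**Figure D1:**
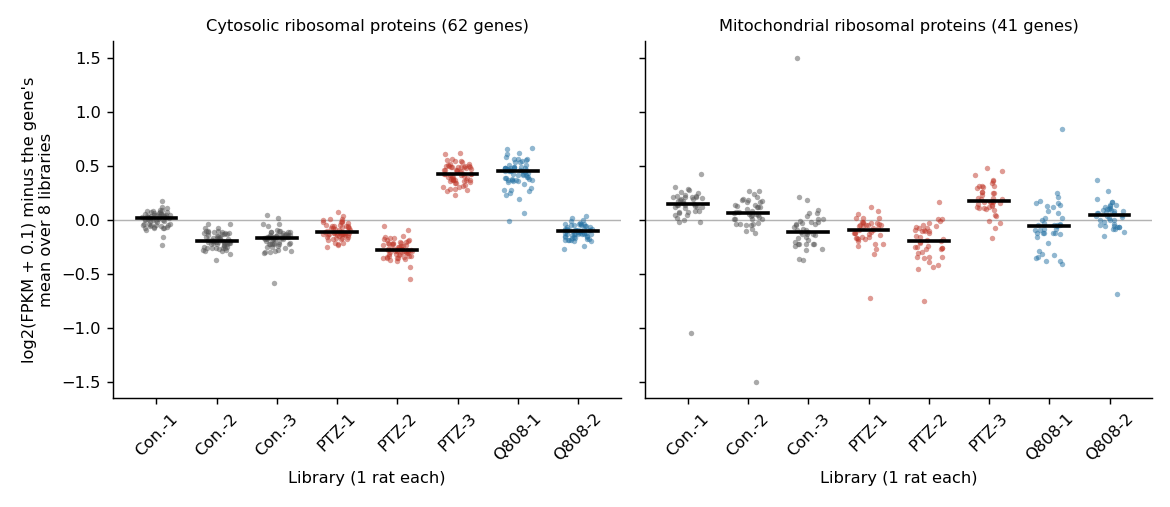
Level of each ribosomal protein gene in each library, as log2(FPKM + 0.1) minus the mean of that gene over the 8 libraries, for the cytosolic set (left, 62 genes) and the mitochondrial set (right, 41 genes). Each point is a gene, bars are medians, grey is Con., red PTZ and blue Q808. The cytosolic medians are 0.42 (PTZ-3) and 0.45 (Q808-1), and they are between -0.28 and 0.02 for the other libraries, and 2 points of 1 mitochondrial gene beyond 1.5 are drawn at the limit.

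Within the PTZ group, PTZ-3 was above both other libraries in 62 of 62 cytosolic genes, and its distance to their mean was 0.34 to 0.85 on the log2 scale (median 0.62). In the mitochondrial set PTZ-3 was above both others in 38 of 41 genes (median distance 0.29), and over all tested genes in 61.0% (median distance 0.25). Within the Q808 group, Q808-1 was above Q808-2 in 61 of 62 cytosolic genes (median log2 distance 0.56), the exception being *Rpl6*, which was singled out after its values were seen. In the mitochondrial set Q808-1 was above Q808-2 in 13 of 41 genes (31.7%, median -0.13), and over all tested genes in 48.3% (median -0.02). It was above Q808-2 in 40.9% of oxidative phosphorylation genes and in 14.3% of proteasome genes. The higher level of Q808-1 was thus seen in cytosolic members and not in most mitochondrial ones.

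The ratio of the 2 cytosolic subunits did not follow this difference. The summed FPKM of the large subunit genes was 1.46 to 1.53 times that of the small subunit genes in all 8 libraries. The cytosolic sum was 15.5 to 18.1 times the mitochondrial sum in 6 libraries, 22.0 times in PTZ-3 and 26.4 times in Q808-1. Cytosolic genes with and without a C or T run over the annotated start stood at nearly the same level in PTZ-3 (median deviations 0.43 for 31 genes and 0.41 for 17 genes) and in Q808-1 (0.46 and 0.44). A run beside the annotated start was counted as absent, so this split depends on the start annotation and cannot separate TOP from other messenger RNAs. A list of 18 other TOP messenger RNAs, such as those of translation factors, had its 2 highest libraries in PTZ-3 and Q808-1 in 8 genes (44.4%).

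Markers of other cells were set beside these levels. All 5 endothelial markers had their 2 highest values in PTZ-3 and Q808-1, with sums of 125 and 150 FPKM against 62.3 to 82.6 elsewhere. For microglia this held for 3 of 5 markers, with sums of 82.4 and 132 FPKM against 55.4 to 76.7, for oligodendrocytes for 2 of 8, with sums of 7230 and 13960 FPKM against 2767 to 7172, and for astrocytes for 2 of 5, with sums of 931 and 1076 FPKM against 658 to 942. Of 6 erythroid markers it held for 0, with sums of 1188 and 2579 FPKM against 356 to 1610. The part of these cells in the cytosolic levels was not tested. Con.-3, which had the highest striatum markers of all libraries, had cytosolic ribosomal protein levels among the low ones (median deviation -0.16). The part of the dissection in the cytosolic levels was not tested either.

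**Figure D2:**
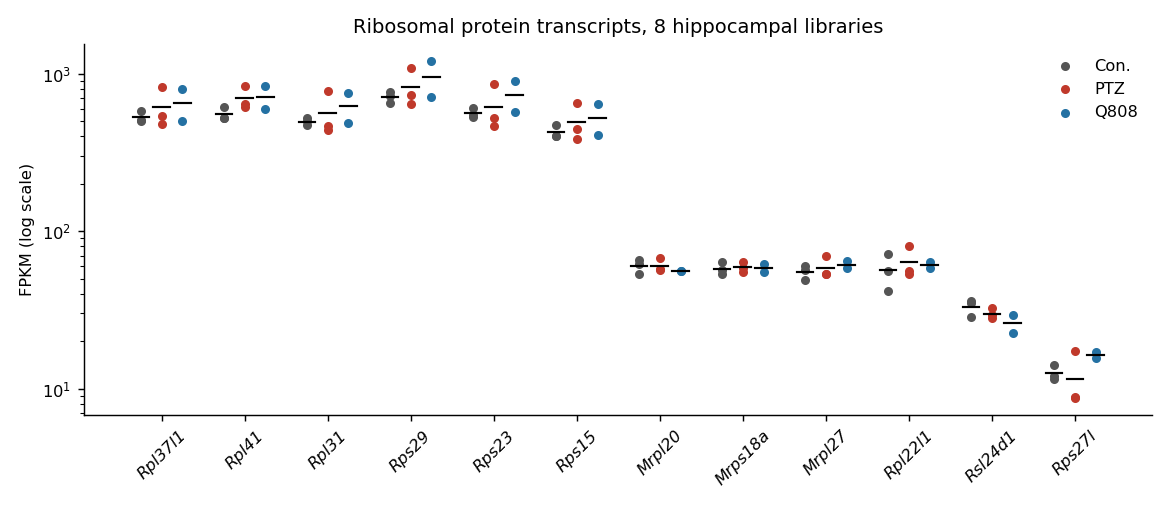
FPKM on a log scale of the 3 most abundant large subunit, small subunit and mitochondrial members and of 3 paralogs in the 8 libraries. Points are rats and bars are group means. In the cytosolic genes a single PTZ and a single Q808 library lie apart at the top, and the mitochondrial members lie at 48.8 to 69.1 FPKM in all groups.

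PTZ was compared with Con. to ask which transcripts differ in kindled hippocampus. By limma with an unadjusted p under 0.05 and a change over 1.5-fold, 0 of 128 members were called, where 2.53% of all tested genes were. Also 0 members had an unadjusted p under 0.05 alone (3.78% of all genes) or an adjusted p under 0.05 (0% of all genes). With the replicate number as a block 1 member was called, the copy *Rps10l1* described below, beside 3.95% of all genes. The median difference of the cytosolic set was 0.13 (60 genes higher, 2 lower), against -0.04 over all tested genes, of which 43.0% were higher. The cytosolic median was -0.08 when PTZ-3 was left out. The large and the small subunit had medians of 0.15 and 0.11. The sign of the cytosolic median thus depended on PTZ-3. This library lay above the mean of PTZ-1 and PTZ-2 by a median of 0.62 in the cytosolic set. Over all tested genes it lay 0.25 above them, so the shift was not confined to ribosome genes.

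The cytosolic and mitochondrial genes with the smallest p-values in this comparison were *Rpl41* (log2 difference 0.33, SE 0.18, adjusted p = 0.9987 by limma) and *Mrps12*, a protein of the small mitochondrial subunit. *Mrps12* was at 16.98, 16.6 and 18.3 FPKM in Con. and at 14.3, 14.3 and 15.9 in PTZ. It was the only member of 128 whose PTZ and Con. values did not overlap (9.15% of all tested genes did not), and its log2 difference was -0.22 (SE 0.13, adjusted p = 0.9987 by limma). *Mrpl34*, of the large mitochondrial subunit, was at 43.3, 38.7 and 35.3 FPKM in Con. and at 28.6, 28.1 and 40.98 in PTZ. Its PTZ values were low in 2 rats and within the Con. range in PTZ-3. Of the 8 genes with the smallest p-values, the 4 cytosolic ones (*Rpl41*, *Rpl28*, *Rpl15*, *Rpl21*) had log2 differences of 0.19 to 0.33 and the 4 mitochondrial ones (*Mrps12*, *Mrpl34*, *Mrps17*, *Mrps5*) of -0.28 to -0.21, and that of *Rpl21* was -0.0067 without the 3 libraries with high striatum markers.

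The mitochondrial set as a whole was slightly lower in PTZ, with a median of -0.06 (31 of 41 genes lower, where 57.0% of all genes were). Without Con.-3, PTZ-3 and Q808-1, 39 of 41 mitochondrial genes were lower in PTZ, with a median of -0.26 against -0.11 over all tested genes, of which 64.4% were lower. In that fit of 2 against 2 rats, 16 of the 41 had an unadjusted p under 0.05 and were lower (range -0.53 to -0.25), beside 13.2% of all tested genes. The smallest adjusted p among them was 0.0931 (limma), for *Mrpl34* at -0.53. *Mrps17* (-0.53) and *Mrps5* (-0.38), both of the small subunit, and *Mrps9* (-0.31) and *Mrpl15* (-0.26) were among the 16, and the cytosolic set had 0 genes at that p with a median of -0.12. The summed FPKM of 6 choroid plexus markers was 2533 and 2510 in the Con. rats of this fit and 408 and 277 in its PTZ rats, and their part in the mitochondrial difference was not tested. The 34 mitochondrial ribosomal protein genes that lack the ribosome annotation had a median of -0.22 there, with 12 lower at an unadjusted p under 0.05.

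**Figure D3:**
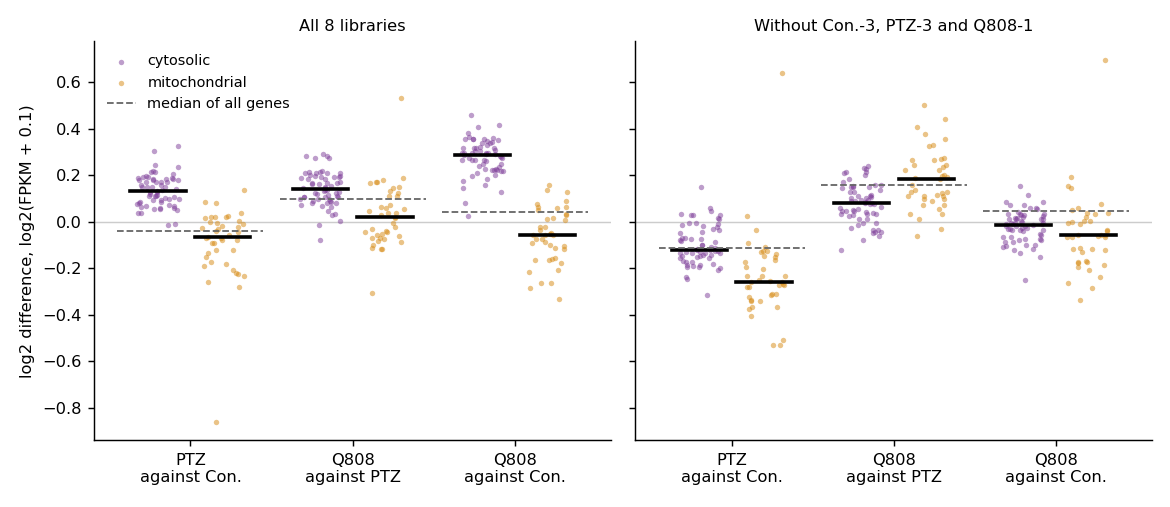
Difference of each cytosolic (purple) and mitochondrial (orange) ribosomal protein gene in log2(FPKM + 0.1) for the 3 comparisons, with all 8 libraries (left) and without Con.-3, PTZ-3 and Q808-1 (right). Black bars are medians of the set and dashed lines the median over all tested genes. The cytosolic medians of 0.13, 0.14 and 0.29 on the left become -0.12, 0.08 and -0.01 on the right.

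Q808 was compared with PTZ to ask what treatment with the compound changes in kindled rats. No member of 128 was called (0, where 1.92% of all tested genes were), and 0 had an unadjusted p under 0.05 (2.19% of all genes) or an adjusted p under 0.05 (0%). The cytosolic median was 0.14 (60 higher, 2 lower, where 61.7% of all tested genes were higher) beside 0.10 over all genes. It was 0.43 without Q808-2 and -0.13 without Q808-1. The mitochondrial median was 0.02 (22 higher, 19 lower), and it was -0.07 under median ratio scaling.

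In Q808 and PTZ, 4 members did not overlap, beside 15.6% of all tested genes. They were *Mrps12*, which was at 16.2 and 17.2 FPKM in Q808 and thus within the span of Con. and PTZ, *Mrpl35*, *Mrpl20* and *Rplp2*. *Mrpl35*, a large subunit protein, was at 16.4, 15.9 and 19.4 FPKM in PTZ and at 12.5 and 15.5 in Q808, a log2 difference of -0.30 (SE 0.20, adjusted p = 0.9522 by limma). *Rps28*, a small cytosolic subunit protein, was at 173, 156 and 218 FPKM in PTZ and at 254 and 190 in Q808, and these ranges overlapped. The other genes with small p-values were *Mrpl33* (log2 difference 0.19), *Mrpl34* (0.18), *Mrpl23* (0.14) and 2 rows without a symbol, 1 for protein L37a (GeneID 100361520, 0.29) and 1 for mitochondrial L30 (GeneID 103693219, 0.53), and both of these had a negative difference without Q808-1. In the rats with low striatum markers, 39 of 41 mitochondrial genes were higher in Q808-2, the 1 remaining Q808 rat, than the mean of PTZ-1 and PTZ-2, with a median of 0.18, but the median over all genes was 0.16 there and 69.6% of them were higher. The choroid plexus sum was 6436 FPKM in Q808-2, and its part was not tested.

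Q808 was also set beside Con., which shares its libraries with the other comparisons. All 62 cytosolic genes had a higher mean in Q808 (median 0.29, range 0.02 to 0.46), and 0 of the 62 were called. Over all tested genes the median was 0.04 and 55.3% were higher. Left out in turn, the 2 Q808 rats gave different readings, in fits that assume a lone rat to vary like those of the other group. With Q808-1 alone, 23 of 62 cytosolic genes were called higher beside 7.06% of all tested genes, and the median was 0.57. With Q808-2 alone, 0 were called higher and the median was 0.02. Among the genes with the smallest p-values, *Rps16* was at 259, 252 and 297 FPKM in Con. and at 453 and 284 in Q808, and *Rpl17* at 202, 187 and 189 in Con. and at 279 and 206 in Q808. The 2 groups overlapped in *Rps16* and did not in *Rpl17*, whose log2 difference was 0.32 (SE 0.20, adjusted p = 0.9006 by limma). Over all members 11 of 128 did not overlap, beside 20% of all tested genes.

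The mitochondrial set had a median of -0.06 in this comparison (27 of 41 lower, where 44.7% of all tested genes were). *Mrps9* was at 25.1, 26.4 and 27.6 FPKM in Con. and at 19.2 and 25.02 in Q808. *Mrpl15* was at 27.4, 26.9 and 25.9 in Con. and at 21.3 and 24.8 in Q808. Both were lower in both Q808 rats than in any Con. rat, with log2 differences of -0.26 (SE 0.17) and -0.22 (SE 0.14), and neither passed the test (adjusted p = 0.9006 by limma).

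The only member called in the main fits of the 3 comparisons was *Rpl35a*, a large subunit gene among those listed low. It was at 1.01, 0.850 and 0.407 FPKM in Con., at 0.560, 0 and 2.84 in PTZ, and at 2.56 and 1.95 in Q808. Its Q808 values were above all Con. values, a log2 difference of 1.52 (SE 0.43, unadjusted p = 0.0135, adjusted p = 0.9006 by limma), where 3.46% of all tested genes were called. It was also the only member with an unadjusted p under 0.05 (4.28% of all genes) in that comparison, the call was lost with all 3 groups in the fit and without Q808-1, and 0 members had an adjusted p under 0.05 (0.00641% of all genes). A second row with the same product (GeneID 100359498) held 96.8% to 100% of the summed FPKM, at 88.7, 68.8 and 74.9 in Con., 102, 52.6 and 147 in PTZ, and 127 and 77.3 in Q808. Summed over its rows, the protein differed by 0.38 between Q808 and Con. and so lay within the range of the cytosolic set.

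The other cytosolic genes listed low behaved differently from each other. *Rpl7a*, of the large subunit, was at 2.51 to 5.05 FPKM in all 8 libraries. *Rpl8*, whose protein sits near the catalytic center of the large subunit, was at 0 in 7 of 8 libraries. *Rps6*, the classical substrate of the kinase S6K, was at 0 to 0.439 FPKM, and a second row with its product was at 2.53 to 6.57. *Rplp2*, a stalk protein of the large subunit, was at 46.4 FPKM in Con.-1 and at 3.27 to 7.19 in the other 7 libraries, so that its Con. mean rested on 1 rat. These rows are uncertain as readings of their proteins, because reads of near-identical copies may have been placed elsewhere.

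Copies shifted between rows from rat to rat. *Rpl30* was at 366, 290 and 219.7 FPKM in Con., at 314, 178 and 332 in PTZ, and at 333 and 128 in Q808. Its copy *Rpl30l2*, which lacks the ribosome annotation, was at 33.4, 27.4 and 126 in Con., at 28.2, 95.9 and 205 in PTZ, and at 213 and 210.4 in Q808. The copy held 8.23% to 8.62% of the sum in Con.-1, Con.-2 and PTZ-1, 35.0% to 38.9% in Con.-3, PTZ-2, PTZ-3 and Q808-1, and 62.1% in Q808-2. Taken singly, *Rpl30l2* was called higher in Q808 than in Con. (log2 difference 2.12, SE 0.67, adjusted p = 0.9006 by limma), where 3.46% of all tested genes were called. *Rpl30* had a difference of -0.47, and the sum of the rows differed by 0.29, the same as the median of the cytosolic set.

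**Figure D4:**
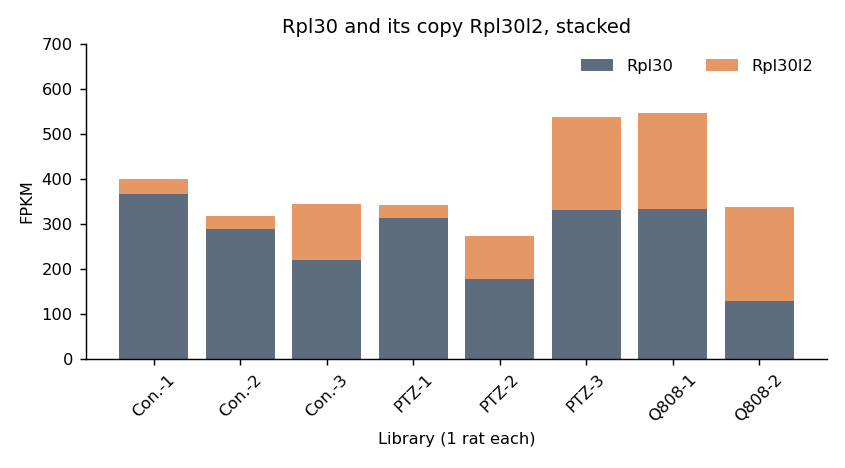
FPKM of *Rpl30* (grey) and its copy *Rpl30l2* (orange), stacked, in the 8 libraries. The copy holds from 8.23% (PTZ-1) to 62.1% (Q808-2) of the bar, while the height of the bar is greatest in PTZ-3 and Q808-1.

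Among the other copies some kept a steady share and some did not. The *Rps14* row held 72.2% to 75.5% of its sum, *Rps13* 82.4% to 85.8% and *Rpl22* 88.5% to 92.5%. The *Rps27a* row ranged from 65.8% to 88.6%, the *Mrpl1* row from 15.6% to 51.1%, and the copy of *Rpl12* held 4.87% to 17.6%. *Rps19l3*, a copy of *Rps19* outside the annotation, was called higher in PTZ than in Con. (log2 difference 0.61, SE 0.25, adjusted p = 0.9987 by limma), at 5.52, 5.38 and 5.56 FPKM in Con. and 6.04, 8.36 and 11.7 in PTZ. *Rpl37-ps5*, a copy row of protein L37 outside the annotation, was called higher in Q808 than in Con. (1.58, SE 0.37, adjusted p = 0.9006 by limma). It had a mean of 0.976 FPKM over the 8 libraries. Calls over all tested genes were 2.53% and 3.46% in these comparisons. *Rps10l1*, a member that copies *Rps10*, was at 16.2, 13.9 and 24.1 FPKM in Con., at 24.9, 22.6 and 47.5 in PTZ, and at 49.1 and 20.6 in Q808, which was 6.32% of the *Rps10* sum in Con.-1 and 17.3% in Q808-1. Its difference between PTZ and Con. was 0.77 (SE 0.33, unadjusted p = 0.0512, adjusted p = 0.9987 by limma), and the sum of both rows differed by 0.14. It was higher in PTZ within each of the 3 numbered pairs, and with the replicate number as a block it was called (unadjusted p = 0.00137, adjusted p = 0.710 by limma). The labels do not say that rats of the same number belong together. The other copy, *Rps12l4*, was at 0 to 0.522 FPKM. A mitochondrial row for protein L30 (GeneID 103693219) was at 9.05 FPKM in Con.-3 and at 0.0756 to 0.931 in the other 7 libraries.

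The paralogs encode separate proteins that can replace or resemble a ribosomal protein. *Rpl22l1*, the paralog of *Rpl22*, ranged from 41.8 (Con.-3) to 80.4 FPKM (PTZ-3), and *Rpl36al1* from 35.1 (Con.-3) to 80.4 (PTZ-3). *Rsl24d1*, which acts in assembly of the large subunit, was at 34.9, 36.1 and 28.3 in Con., at 29.5, 28.0 and 32.3 in PTZ, and at 22.6 and 29.4 in Q808, and the groups overlapped. *Rpl3l*, the muscle paralog of *Rpl3*, and *Rpl39l1* were near the limit of the measurement at 0.182 to 0.583 and 0 to 1.79 FPKM.

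*Rps27l*, a paralog of *Rps27* known as a p53 target, was at 14.1, 11.4 and 12.1 FPKM in Con., at 8.65, 8.88 and 17.2 in PTZ, and at 17.1 and 15.5 in Q808. Its PTZ values were below all others in 2 rats and were the highest of all in PTZ-3. The Q808 values were above all Con. values (log2 difference 0.38, SE 0.16, adjusted p = 0.9006 by limma). Among the rats with low striatum markers, the difference was -0.53 between PTZ and Con. and 0.82 between Q808 and PTZ, with adjusted p-values of 0.169 and 0.284 (limma). The second value sets 1 Q808 rat against 2 PTZ rats and assumes it to vary like them. None of the 6 paralogs was called in the main fits. *Rps27l* was called higher in Q808 than in PTZ with the replicate block and without PTZ-3 (0.89 in both, adjusted p = 0.3852 and 0.4275 by limma). With 1 library left out, *Rpl39l1* was called lower in Q808 than in Con. without Con.-3 (-1.23). It was also called lower in Q808 than in PTZ without PTZ-2 (-1.77). *Rpl3l* was called lower in PTZ than in Con. without PTZ-3 (-0.90). *Rpl3l*, whose Q808 values lay below all Con. values, was called lower in Q808 than in Con. in some other unblocked fits of all libraries. These were the fits with all genes above 0, without the trend and under quantile normalization. Its log2 differences there were -0.80, -0.80 and -1.03 (adjusted p = 0.8365, 0.8918 and 0.9134 by limma).

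Other gene groups were counted beside the members, where calls over all tested genes were 2.53%, 1.92% and 3.46% and the medians -0.04, 0.10 and 0.04 for PTZ with Con., Q808 with PTZ and Q808 with Con. Of 42 proteasome genes (rno03050), 1 was called in PTZ against Con. and 0 in the other comparisons, with medians of 0.03, -0.12 and -0.09 in that order. Of 110 genes of oxidative phosphorylation (rno00190), which includes the subunits that mitochondrial ribosomes serve, 0, 3 and 2 were called, with medians of 0.01, -0.03 and -0.03. The other 18 TOP messenger RNAs had 0 calls in the 3 comparisons and medians of 0.11 and 0.12 in those with Con.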

How the data were processed

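Libraries were grouped by their labels. Per the labels and the study's methods, poly-A RNA of bilateral hippocampus was sequenced, reads were trimmed by the authors with Trimmomatic, and the deposited FPKM are Cufflinks estimates for each gene. The submitters' processing notes also name HISAT2, Bowtie2, StringTie, SAMtools, HTSeq and DESeq. The genome build is not given in the sources used here. Genes carry NCBI GeneIDs, of which 20638 of 22601 received a RefSeq symbol (GRCr8 table, names only), 20633 of them by GeneID and the rest by accession.

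Genes with a mean of at least 0.1 FPKM were fitted as log2(FPKM + 0.1) by limma 3.58.1 (R 4.3.3) with a mean-variance trend, on the 2 groups compared, with Benjamini-Hochberg adjustment over all 15593 genes. These were the main fits, with all libraries of the 2 groups and no block. The procedure was also run on simulated data with genes drawn independently. No simulated library stood apart, so that run does not bear on shifts shared by many genes in 1 rat. The labels do not say whether libraries shared a litter or a day. Replicate numbers in the labels were checked as pairs by the correlation of deviations from group means. It was 0.21, 0.30 and 0.42 for Con. with PTZ, and these were taken as pairs from the data alone, while the pairs with Q808 were not (-0.30 and 0.32 with PTZ, -0.38 and 0.53 with Con.). Rats of different numbers were not compared in this way. The value of 0.42 joins Con.-3 and PTZ-3, which both had high striatum markers, and the part of the dissection in these correlations was not tested. The block therefore rests on no known pairing of rats. Tables and plots used Python 3.11.15, numpy 2.4.6, pandas 2.3.3 and matplotlib 3.10.9.

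Members and lists were chosen with earlier results of these data known. Copies were to be found by protein identity, but no protein table was used here, and rows with the same product name replaced it. Named were called genes, the 8 with the smallest p per comparison among single-copy genes, the 3 most abundant per class, paralogs and copies. Genes with copies, genes listed low and groups of non-overlapping genes were named after their values were seen. The alternatives were pseudocounts of 1 and 0.01, other filters, 3 groups in a fit, no trend, quantile and median ratio scaling, a replicate block, other call rules, and libraries left out or set as a covariate.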

Additional observations from a re-analysis of the deposited data

How the results depend on the processing

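The number of members called depended on single libraries. The counts below are given without the share of all tested genes called in the same fit, which changed in some fits as well. Of all tested genes, 3.95% were called with the block in PTZ against Con., beside 2.53% in the main fit. Without Q808-2, this share was also above that of the main fit of Q808 against Con. The number of members called is therefore no result about ribosome genes alone. For PTZ against Con. it was 0, and 1 under quantile normalization, median ratio scaling, the replicate block, the striatum-marker covariate and without the 3 libraries with high striatum markers. In each of these the gene was *Rps10l1*. For Q808 against PTZ it was 0, then 3 with the block and 1 without the 3 libraries. For Q808 against Con. it was 1, then 0 with all 3 groups in the fit, 2 with all genes above 0, without the trend, under quantile normalization, without the 3 libraries and with the covariate, and 3 with the block. With each library left out in turn, the counts ranged from 0 to 1, from 0 to 2 and from 1 to 29, the 29 being without Q808-2. The median differences moved by more than 1 SD between libraries only without the 3 libraries, to -0.26 (PTZ against Con.) and 0.18 (Q808 against PTZ) for the mitochondrial set and to -0.011 (Q808 against Con.) for the cytosolic set. With each library left out, the cytosolic medians ranged from -0.08 to 0.29, from -0.13 to 0.43 and from 0.02 to 0.57, and the mitochondrial medians from -0.20 to 0.04, from -0.07 to 0.14 and from -0.13 to 0.01. The PTZ against Con. difference of *Rpl35a* was -0.49 and turned to 0.065 with a pseudocount of 1, that of *Rpl21* turned from 0.23 to -0.0067 without the 3 libraries, and with 1 library left out *Rpl35a* ranged from -1.66 to 0.78. In Q808 against PTZ, GeneID 103693219 ranged from -0.23 to 1.29 and GeneID 100361520 from -0.085 to 0.67 in this way. Where not shown by the libraries left out, the cause was not tested. The block, which pairs different rats by number, changed no other call among the members in PTZ against Con. The pairs with Q808 share only a number, and with the block the cytosolic median was 0.36 in Q808 against PTZ.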
